A study of Papio anubis and Macaca mulatta with 6 samples.

Results

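The 7 genes of the Desert hedgehog pathway described here were chosen by symbol as the ligand DHH, the receptors PTCH1 and SMO, the transcription factors GLI1, GLI2 and GLI3 and the inhibitor HHIP. All 7 were found in the lists of both species, among 34178 baboon and 21356 rhesus genes. Their unique molecular identifiers (UMIs, the counts of captured mRNA molecules) were compared among prepubertal testis cells of 2 baboons and 2 rhesus monkeys. The testes were obtained at necropsy of animals euthanized for another purpose, and the paper names no treatment of them. The tissue was digested in 2 enzymatic steps, with a wash to remove interstitial cells after the first. Baboon 1 and rhesus 2 gave 2 libraries each (1A and 1B, 2A and 2B), and baboon 2 and rhesus 1 gave 1 each. Droplet libraries that read the 3′ end of each transcript were used, of chemistry version 3 for baboon 2 and version 2 for the other 5. The series' text gives the baboons as 15 and 20 months old and the rhesus monkeys as newborn and 26 months old. The paper's text gives the ages of the species the other way round, so no age was tied to an animal and the species were never tested against each other.

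Hedgehog ligands are secreted proteins that bind the receptor PTCH1, which otherwise holds the transmembrane protein SMO inactive. Released SMO lets the GLI factors act on target genes. GLI1, PTCH1 and HHIP are themselves targets, so that their transcripts are commonly used to read pathway activity, and PTCH1 and HHIP both restrain the signal by binding the ligand. In the testis DHH is known as a product of Sertoli cells, and cells outside the tubules, including the precursors of Leydig cells and peritubular cells, are known as its recipients.

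The stretch upstream of rhesus PTCH1 is shown because this receptor and target gene stood out in the baboon. There its highest mean level of the classes compared was in stroma-like cells. In the rhesus monkey the highest mean was in mural-like cells, from 7 UMIs. It covers the 300 bases before the annotated RefSeq gene start in Mmul_10, written 5′ to 3′ on the strand of the gene. None of the 7 members had a match to the GLI motif GACCACCCA on either strand in such a window, and 57 of 20782 rhesus gene starts (0.274%) had one. No base is in capitals, since no match was found. PTCH1 is at chr15:112307095-112382443 on the plus strand, and its window is chr15:112306795-112307094.
PTCH1: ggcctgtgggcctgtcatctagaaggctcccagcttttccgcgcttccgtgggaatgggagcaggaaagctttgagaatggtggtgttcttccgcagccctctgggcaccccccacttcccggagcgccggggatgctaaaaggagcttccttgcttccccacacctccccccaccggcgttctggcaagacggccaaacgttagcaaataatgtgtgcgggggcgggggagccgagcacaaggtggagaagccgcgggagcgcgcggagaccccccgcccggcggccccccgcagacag

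The 6 libraries held 16875294 to 49803025 UMIs, and 5552 to 11165 cells were called in each. Of the cells of baboon 2, 5709 of 7914 were called only by their expression profile, below the UMI cutoff. Libraries 2A and 2B shared 109 cell barcodes, where 79.3 would be shared at random, and their cells are of the same animal. Each cell was given a class from its UMIs of marker genes, none of which belongs to the pathway. In the baboon 11423 cells were Sertoli-like, 5025 stroma-like, 150 mural-like (pericytes and peritubular myoid cells together) and 298 endothelial-like. Of the rhesus cells 6321 were Sertoli-like, 14141 stroma-like, 415 Leydig-like, 415 mural-like and 628 endothelial-like. No Leydig-like class could be formed in the baboon, where 3 of the 6 Leydig markers had UMIs and 11 cells met the starting rule. The class limit passes through a range of cells, and those just short of it (posterior from 0.5 to under 0.95) were left without a class. In the rhesus monkey 1009 such cells were nearest to the stroma-like class, 743 to the Sertoli-like and 147 to the mural-like class. Mural-like cells of rhesus 1 also had a median of 9 stroma marker UMIs beside 14 of their own. Levels are given as CPM, the UMIs of a gene divided by all UMIs of the class in that animal and multiplied by 1000000.

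DHH, the ligand, was highest in Sertoli-like cells of all 4 animals among the classes compared, with all called cells used. It stood at 68.0 CPM in baboon 1 (1602 UMIs), 46.6 in baboon 2 (1390 UMIs), 107 in rhesus 1 (687 UMIs) and 165 in rhesus 2 (1234 UMIs). In stroma-like cells the same animals had 14.1, 12.5, 11.2 and 6.87 CPM, so that the 2 classes did not overlap in either species. With 2 animals per class, lack of overlap here and below is a description. The share of all genes without overlap is not given. The other classes were between 3.06 and 18.99 CPM in 9 of 10 sums, and mural-like cells of baboon 2 had 44.4 CPM from 10 UMIs. With the UMI cutoff alone, 9 mural-like cells of baboon 2 remained, at 81.0 CPM from 8 UMIs, above the 46.6 CPM of its Sertoli-like cells. In the order of levels, Sertoli-like cells stood apart from the next class in both species, and the ranges of the Leydig-like, endothelial-like, stroma-like and mural-like cells of the rhesus monkey overlapped between neighbors. A DHH UMI was found in 20.0% of baboon Sertoli-like cells (median 2753 UMIs) and in 2.25% of stroma-like cells (median 1638 UMIs). The rhesus shares were 22.6% (median 1762 UMIs) and 1.30% (median 1448 UMIs). With 1000 UMIs drawn from each cell, the shares were 5.93% and 0.438% for the baboon and 11.7% and 0.760% for the rhesus monkey, over the 10894, 4336, 5628 and 11710 cells that were deep enough.

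**Figure D1:**
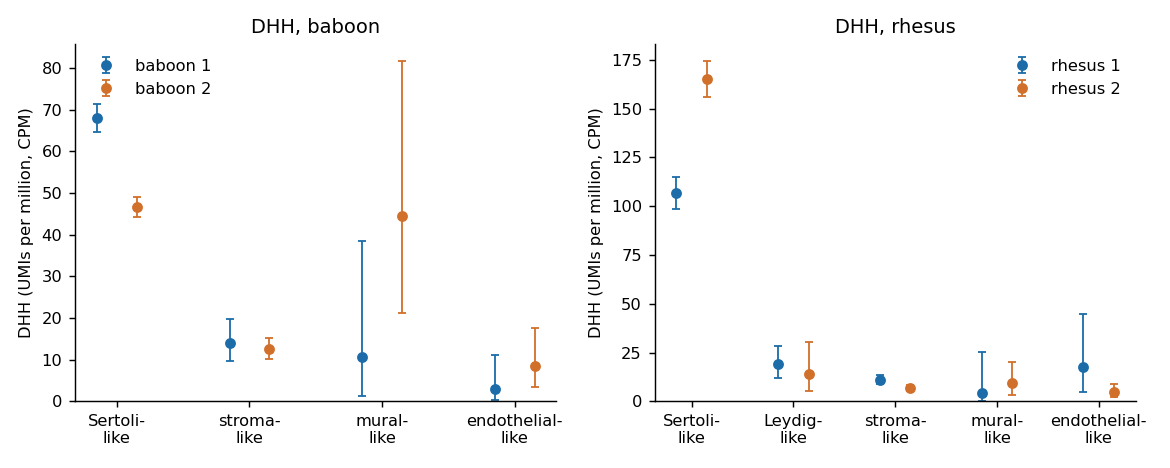
DHH level (CPM) by cell class, with a point for each animal and bars for the 95% Poisson counting interval. Sertoli-like cells are at 46.6 and 68.0 CPM in the baboons and at 107 and 165 in the rhesus monkeys, and the wide bar of baboon 2 in mural-like cells rests on 10 UMIs.

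The DHH found in stroma-like cells moved with the Sertoli markers found there, and with the doublets. Without the doublets it was 6.48 CPM (11 UMIs) in baboon 1 and 3.75 CPM (23 UMIs) in baboon 2, and 8.06 and 5.81 CPM in rhesus 1 and 2. With the UMI cutoff alone it was 35.5 CPM (80 UMIs) in baboon 2. As a percent of the level in Sertoli-like cells of the same animal, DHH in stroma-like cells was 20.7% in baboon 1, 26.9% in baboon 2, 10.5% in rhesus 1 and 4.16% in rhesus 2. The summed Sertoli markers in the same cells were at 19.6%, 26.7%, 12.4% and 4.72%. In barcodes with few UMIs, taken as free RNA, DHH was at 29.1 CPM (48 UMIs) in library 1A and 49.8 (9 UMIs) in 1B. The other levels in free RNA were 7.22 CPM (2 UMIs) in baboon 2, 29.3 (92 UMIs) in rhesus 1, and 49.8 (66 UMIs) and 39.9 (56 UMIs) in 2A and 2B. The DHH of stroma-like cells was below that of free RNA in baboon 1 and both rhesus monkeys, and in baboon 2 it was above a free RNA value that rests on 2 UMIs. The parts of free RNA, doublets and the cells' own transcripts in it were not tested. Mural-like cells of baboon 2 were at 95.3% of the DHH level of its Sertoli-like cells (counting interval 45.7 to 175%) and at 27.5% for the Sertoli markers. In Leydig-like cells DHH was at 17.8% and 8.42% in rhesus 1 and 2, and the Sertoli markers at 8.26% and 1.81%. These rest on 23 and 6 DHH UMIs, and the part of free RNA in them was not tested.

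PTCH1, the receptor that binds DHH and a target of the pathway, was highest in stroma-like cells of the baboon, at 40.1 CPM in baboon 1 and 44.3 in baboon 2. Sertoli-like cells had 2.67 and 1.74 CPM. Endothelial-like cells had 7.66 and 19.6 CPM, and mural-like cells 10.7 and 4.44 from 3 UMIs in all. The stroma-like cells thus stood apart from these 3 classes, whereas endothelial-like and mural-like cells overlapped. Baboon germ-like cells, outside the comparisons, had 25.7 and 41.2 CPM and overlapped with the stroma-like cells. With cells called by the UMI cutoff alone, stroma-like cells of baboon 2 (240 in place of 3471) had 19.1 CPM of PTCH1. Free RNA held 5.45 CPM of PTCH1 (9 UMIs) in library 1A, 38.8 (7 UMIs) in 1B and 21.7 (6 UMIs) in baboon 2, so that the value of 1B was close to that of the stroma-like cells of its animal. Rhesus PTCH1 had far fewer UMIs, with 4.34 CPM (40 UMIs) in stroma-like cells of rhesus 1 and 5.66 (75 UMIs) in those of rhesus 2. Leydig-like cells had 4.13 and 6.94 CPM and overlapped with the stroma-like cells. Mural-like cells had 18.2 and 4.68 CPM from 7 UMIs, the highest rhesus mean, and Sertoli-like cells had 0.931 and 1.34. A PTCH1 UMI was found in 7.04% of baboon stroma-like cells against 0.980% of Sertoli-like cells, and in 0.792% against 0.253% in the rhesus monkey, at the depths given above.

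SMO, which carries the signal across the membrane, was at 47.8 and 27.6 CPM in stroma-like cells of baboons 1 and 2 and at 5.77 and 9.49 in their Sertoli-like cells. Rhesus SMO had 0.867 and 3.40 CPM in stroma-like cells, 0 and 1.34 in Sertoli-like cells and no UMI in 415 Leydig-like cells. The 546 cells of the rhesus cluster named Leydig also had none, for which the counting interval allows up to 1.82 CPM. The counts of SMO and GLI3 were too low in the rhesus monkey for the test.

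GLI1, the factor that is itself induced by hedgehog signaling, stood at 16.6 CPM in stroma-like cells of baboon 1 and at 13.8 in those of baboon 2, where the UMI cutoff alone gave 7.10. Sertoli-like cells had 0.0424 CPM (1 UMI, counting interval 0.00107 to 0.236) and 0.268 (8 UMIs), and mural-like and endothelial-like cells had none. Against the limit of 3 UMIs pooled over both animals, stroma-like cells were at least 7.06-fold higher than endothelial-like cells and at least 1.99-fold higher than mural-like cells. Such limits cover counting only and leave out the spread between animals. The test against mural-like cells did not call GLI1 (adjusted p = 0.206, edgeR). Free RNA of library 1B held 16.6 CPM of GLI1 from 3 UMIs, and that of 1A and baboon 2 held 1 UMI each. Rhesus stroma-like cells differed in GLI1 between the animals, with 5.64 CPM in rhesus 1 and 20.8 in rhesus 2, and libraries 2A and 2B were at 19.8 and 21.9. Mural-like cells had 4.54 and 6.24 CPM, Leydig-like cells 1.65 and 2.31, and Sertoli-like cells 0.310 and 0.802.

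GLI2, the main activator among the GLI factors, followed the same order. In stroma-like cells it was at 15.8 and 11.8 CPM in the baboons and at 23.7 and 36.8 in the rhesus monkeys. With the UMI cutoff alone baboon 2 had 3.11 CPM (7 UMIs). In Sertoli-like cells it was at 0.679 and 0.805, and at 1.24 and 7.89. In rhesus 2 the free RNA had 9.05 and 13.5 CPM of GLI2, above the level of its Sertoli-like cells. Mural-like cells had no GLI2 UMI in the baboon, and 22.7 and 18.7 CPM in the rhesus monkey. By the same counting limit baboon stroma-like cells were at least 1.74-fold higher, but the test did not call GLI2 (adjusted p = 0.127, edgeR). Of 17 GLI2 UMIs in rhesus mural-like cells, 5 (rhesus 1) and 11 (rhesus 2) were in cells with more peritubular myoid than pericyte UMIs. Cells with more pericyte UMIs held 0, and those with equal numbers 1. The cells with more pericyte UMIs were 8 in rhesus 1 and 115 in rhesus 2, beside 76 and 158 with more myoid UMIs. In baboons 1 and 2 they were 61 and 38, beside 24 and 11. The make-up of the mural-like class thus differed between the species, and its part in the GLI2 levels was not tested. GLI3, known mainly as the repressor form, did not follow this order in the baboon. It had 14.4 and 7.14 CPM in Sertoli-like cells, 10.2 and 9.69 in stroma-like cells, 21.3 and 8.88 in mural-like cells and 7.66 and 8.59 in endothelial-like cells. The free RNA of the 3 baboon libraries held 5.54 to 8.48 CPM of GLI3. Rhesus GLI3 was between 0 and 3.70 CPM in the 5 classes compared.

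HHIP, which binds the ligand at the surface of receiving cells, had its highest level in Leydig-like cells of the rhesus monkey, at 47.9 CPM (58 UMIs) in rhesus 1 and 16.2 (7 UMIs) in rhesus 2. Stroma-like cells had 9.21 and 5.28 CPM, and Sertoli-like cells 1.24 and 0.401. Every Leydig-like value was above every stroma-like value, although the Leydig-like values themselves were far apart. The test against stroma-like cells did not call HHIP (adjusted p = 0.194, edgeR). Of the 7 members only PTCH1 overlapped between these 2 classes, so lack of overlap does not set HHIP apart. A HHIP UMI was found in 13.7% of Leydig-like cells (median 3532 UMIs) and 1.07% of stroma-like cells, and in 4.25% and 0.658% with 1000 UMIs per cell. In the baboon HHIP was at 5.12 and 7.80 CPM in stroma-like cells and at 1.82 and 1.94 in Sertoli-like cells. It had no UMI in mural-like cells and 1 in endothelial-like cells.

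**Figure D2:**
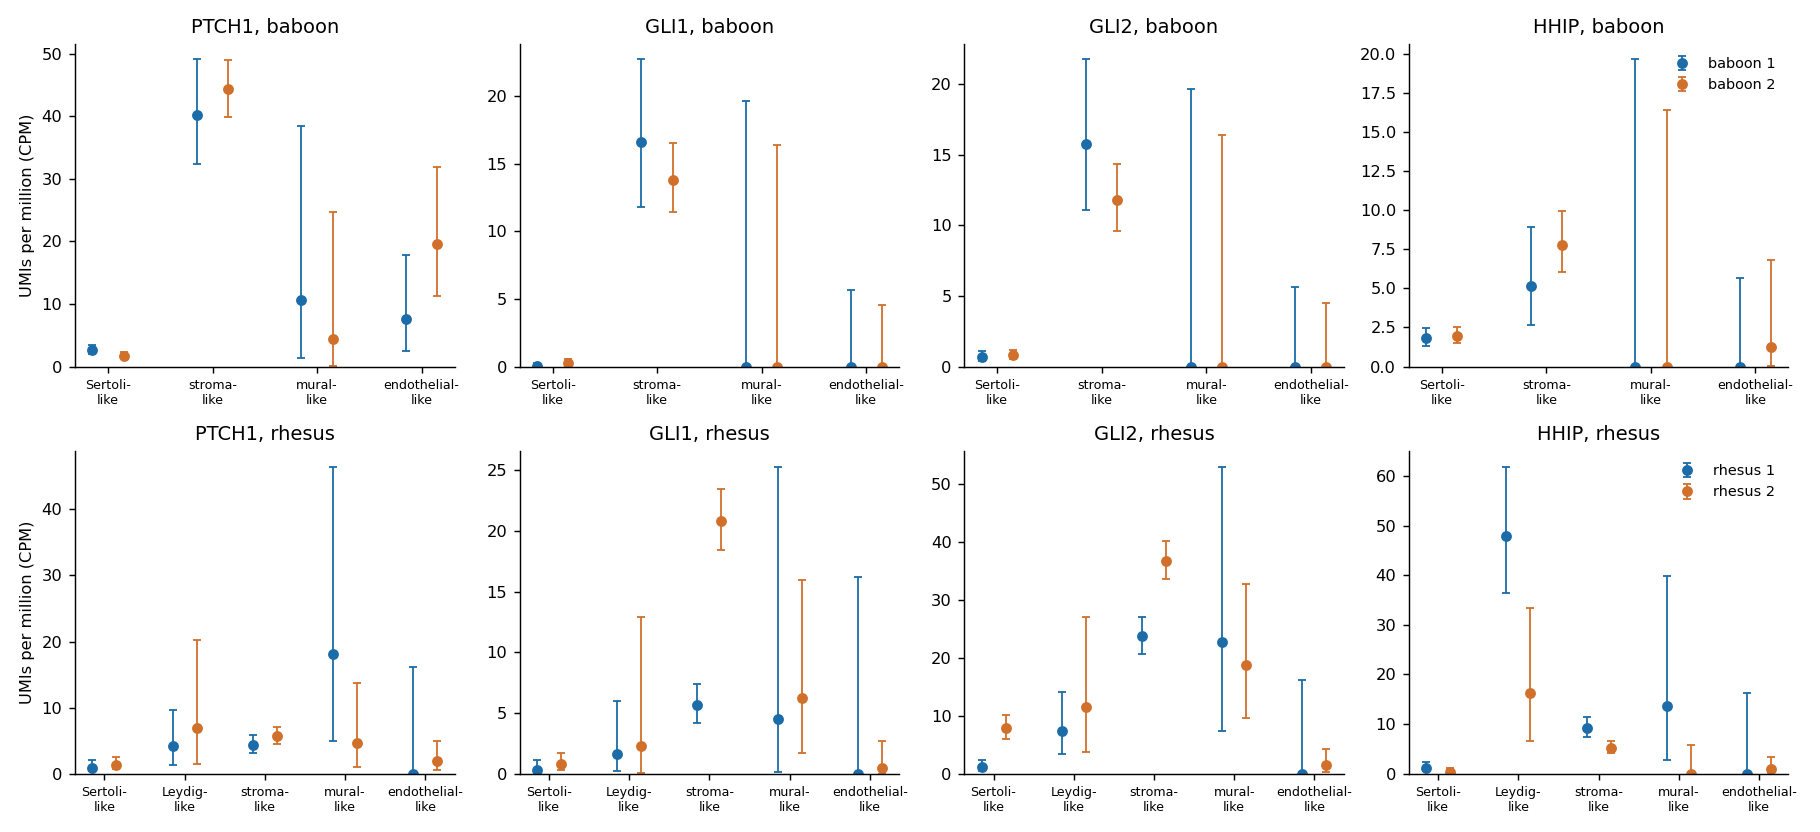
PTCH1, GLI1, GLI2 and HHIP levels (CPM) by cell class, in the baboon (top) and the rhesus monkey (bottom), with a point for each animal and 95% Poisson counting intervals. Stroma-like cells lead for PTCH1 at 40.1 and 44.3 CPM in the baboons, and Leydig-like cells lead for HHIP at 47.9 and 16.2 CPM in the rhesus monkeys.

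Sertoli-like cells were tested against stroma-like cells over all genes, with edgeR's quasi-likelihood test on sums per animal and n = 2 animals per species. In the baboon 6 of the 7 members passed the filter on low counts, and 1 was called higher and 4 lower in Sertoli-like cells at an adjusted p under 0.05. Over all 11716 genes, 6.08% were called higher and 11.7% lower. DHH was higher by 2.03 (SE 0.44, adjusted p = 0.0132, edgeR) on the log2 scale. PTCH1 was lower by 4.34 (log2 -4.34, SE 0.43, adjusted p = 0.000297, edgeR). GLI1 changed by -6.52 (SE 0.84, adjusted p = 0.00282), GLI2 by -4.27 (SE 0.58, adjusted p = 0.00353) and SMO by -2.39 (SE 0.52, adjusted p = 0.0134). GLI3 gave 0.04 (SE 0.48, adjusted p = 0.980), and HHIP did not pass the filter. Baboon GLI1 and GLI2 passed it only through stroma-like cells, since no other class compared had over 0.805 CPM of either. Passing the filter thus already tied these 2 members to a high stroma-like level, and their direction is no separate support. With cells called by the UMI cutoff alone, DHH in the baboon was 1.04 (adjusted p = 0.502) and SMO -2.10 (adjusted p = 0.117).

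Of the rhesus members 5 passed the filter, and 1 was called higher and 3 lower in Sertoli-like cells, where 7.14% of all 10153 genes were called higher and 8.14% lower. DHH was higher by 3.71 (SE 0.46, adjusted p = 0.000992, edgeR). GLI1 changed by -4.66 (SE 0.81, adjusted p = 0.00408), GLI2 by -2.96 (SE 0.64, adjusted p = 0.0116) and HHIP by -3.25 (SE 0.97, adjusted p = 0.0463). PTCH1 gave -2.29 (SE 0.74, adjusted p = 0.0630), and with the animal as a block its adjusted p was 0.0102. The median change of the tested members was -3.33 for the baboon and -2.96 for the rhesus monkey, beside 0.03 and 0.01 over all genes. The baboon median includes GLI1 and GLI2, which passed the filter only through stroma-like cells, so it is a description.

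**Figure D3:**
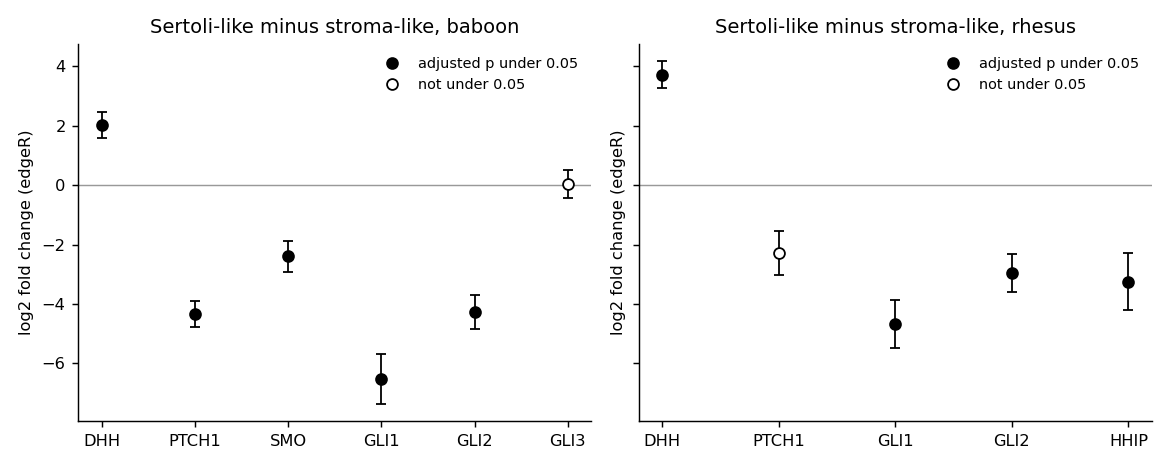
Log2 fold change of the members that passed the filter, Sertoli-like minus stroma-like cells, with 2 animals per species. Bars are SEs calculated from edgeR's F statistic. Filled points have an adjusted p under 0.05, and DHH is the member above 0 with a filled point, at 2.03 for the baboon and 3.71 for the rhesus monkey.

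No member was called between Leydig-like and stroma-like cells of the rhesus monkey, where 0.857% of all genes were called higher and 0.581% lower. HHIP had the largest positive value, 2.62 (SE 0.87, adjusted p = 0.194, edgeR), and with the animal as a block it was 2.43 (adjusted p = 0.0124). DHH gave 1.33 (adjusted p = 0.258), PTCH1 0.46 (adjusted p = 0.883), GLI2 -1.34 (adjusted p = 0.469) and GLI1 -2.39 (adjusted p = 0.288). Mural-like cells also had no called member in either species. All genes were called at 3.12% higher and 1.12% lower in the baboon, and at 0.256% higher and 0.0197% lower in the rhesus monkey. PTCH1 in baboon mural-like cells gave -2.60 (SE 0.69, adjusted p = 0.0857, edgeR), and 0.0199 was its adjusted p with the animal as a block.

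In endothelial-like cells 3 of 6 tested baboon members and 2 of 5 tested rhesus members were called lower than in stroma-like cells. In the baboon 9.87% of all genes were called higher and 6.17% lower, and in the rhesus monkey 7.07% and 4.03%. Baboon SMO changed by -3.78 (SE 0.79, adjusted p = 0.0130, edgeR) from 4 UMIs in endothelial-like cells. GLI1 and GLI2 were called at adjusted p of 0.0290 and 0.0132 (edgeR). With no UMI in endothelial-like cells, their folds are the pooled counting limits of at least 7.06 and at least 6.20. Both had passed the filter only through stroma-like cells, so that their lower direction here is no separate support. PTCH1 gave -1.58 (SE 0.46, adjusted p = 0.0508, edgeR) and 0.00346 for the adjusted p with the animal as a block. Rhesus GLI1 changed by -4.84 (SE 1.19, adjusted p = 0.0255) and GLI2 by -4.53 (SE 0.96, adjusted p = 0.0134), from 1 and 3 UMIs in endothelial-like cells. With classes taken from clusters, the adjusted p for GLI1 was 0.0515 for the baboon and 0.0802 for the rhesus monkey.

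Other genes of the pathway were taken from lists of ligands and their release, co-receptors, signal transduction, primary cilium and GLI targets, 37 genes in all. Baboon HHAT and rhesus CCND2 were not analysed here. In the baboon 24 genes were tested, and 0 were higher and 4 lower in Sertoli-like than in stroma-like cells. Over all genes, 6.08% were called higher and 11.7% lower in this comparison. BOC and GAS1, co-receptors that help PTCH1 bind the ligand, changed by -6.84 (SE 0.60, adjusted p = 0.000157) and -2.75 (SE 0.44, adjusted p = 0.00333). BOC was at 19.2 and 23.2 CPM in stroma-like cells and at 0.0848 and 0.268 in Sertoli-like cells of baboons 1 and 2. GPR161, a receptor of the cilium that restrains the pathway, changed by -4.15 (SE 0.44, adjusted p = 0.000393), from 68.3 and 46.5 CPM in stroma-like cells to 4.07 and 2.75. CCND1, a cyclin among the listed GLI targets, changed by -4.55 (SE 0.74, adjusted p = 0.00352). By list, 0 of 1 tested gene of ligands and release, 2 of 4 receptors and co-receptors, 1 of 10 signal transduction genes, 0 of 5 primary cilium genes and 1 of 5 GLI targets were called, all lower. The medians of the signal transduction and primary cilium lists were 0.07 and -0.23 on the log2 scale, beside 0.03 over all genes.

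Of the other genes 19 in the rhesus monkey were tested between Sertoli-like and stroma-like cells, and 1 was higher and 2 lower. The shares over all genes were 7.14% higher and 8.14% lower. GPR161 changed by -3.17 (SE 0.64, adjusted p = 0.00838) and GAS1 by -2.55 (SE 0.63, adjusted p = 0.0199). MYCN, a transcription factor of growing cells and a listed GLI target, was higher by 2.02 (SE 0.58, adjusted p = 0.0400). No ligand or release gene was tested there. By list, 1 of 1 co-receptor and 1 of 10 signal transduction genes were called lower, 0 of 5 cilium genes were called, and 1 of 3 GLI targets was called higher. BOC had 2 and 17 UMIs in rhesus stroma-like cells and was not tested. In endothelial-like cells CCND1 and MYCN were higher than in stroma-like cells in both species, whereas GLI1 and GLI2 were called lower. CCND1 was higher by 3.11 (adjusted p = 0.0143, edgeR) in the baboon and 4.13 (adjusted p = 0.00497) in the rhesus monkey. MYCN was higher by 1.75 (adjusted p = 0.0387) and 2.63 (adjusted p = 0.0251). Of the 5 GLI targets tested in the baboon, 2 were called higher and 2 lower. Of 3 in the rhesus monkey, 2 were called higher and 0 lower. Over all genes, 9.87% were called higher and 6.17% lower in the baboon, and 7.07% and 4.03% in the rhesus monkey. Baboon genes lower in endothelial-like than in stroma-like cells included BCL2 (log2 -2.58, adjusted p = 0.000662), BOC (-3.92, adjusted p = 0.00835), GPR161 (-2.01, adjusted p = 0.0226), TULP3 (-1.60, adjusted p = 0.0310) and KIF3A (-1.21, adjusted p = 0.0466). In baboon mural-like cells CCND1 was the 1 called gene of 24, higher by 3.82 (SE 0.70, adjusted p = 0.0196, edgeR). Of all genes 3.12% were called higher there. In mural-like or Leydig-like cells of the rhesus monkey 0 of 19 were called. The median of the tested genes of all lists in Sertoli-like against stroma-like cells was 0.02 for the baboon and -0.36 for the rhesus monkey, beside 0.03 and 0.01 over all genes.

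The stroma-like level was a mean over unlike cells. In clusters formed without the genes of the pathway, 908 cells, 97.5% of them of baboon 2, were led by INSL3, STC1, STAR, INMT and PROK1. INSL3 and STAR are products of Leydig cells, but this cluster met the naming rule for stroma and kept that name. No Leydig-like class was formed in the baboon, so its stroma-like class could also take in such cells. The 908 cells held 98.4 CPM of PTCH1 (counting interval 86.6 to 111), 27.6 of GLI1 (21.5 to 34.8) and 16.1 of HHIP (11.6 to 21.9). Their PTCH1 UMIs were 250, beside 120 in the larger cluster of the same animal. The larger cluster of the same animal, with 2432 cells, had 25.7 CPM of PTCH1 (21.3 to 30.7), 8.78 of GLI1 (6.30 to 11.9) and 6.21 of HHIP (4.16 to 8.92). GLI2 was alike, at 15.0 CPM (10.6 to 20.5) and 13.3 (10.2 to 17.0). The intervals of DHH, SMO and GLI3 also overlapped between these 2 clusters. Both clusters were formed from expression, and no share over all genes is given for such differences. The 1948 cells of the cluster mostly of baboon 1 had 36.2 CPM of PTCH1 and 14.6 of GLI1. No test applies within 1 animal, and the intervals cover counting error only.

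In rhesus 2 the 1221 cells led by TGFBI, TAGLN, AQP3 and CCN2 had 16.5 CPM of PTCH1 (11.5 to 22.9), 38.6 of GLI1 (30.7 to 47.9) and 49.4 of GLI2 (40.4 to 59.8). The 8342 cells of the main stroma cluster of this animal had 4.31 (3.21 to 5.67), 17.0 (14.7 to 19.5) and 35.5 (32.2 to 39.0). HHIP was at 13.7 CPM (9.14 to 19.6) in the 1221 cells and at 4.06 (2.99 to 5.38) in the 8342. In rhesus 1 the 1203 cells led by ACTA2 and ECEL1 had 9.00 CPM of PTCH1 (5.70 to 13.5) and 18.8 of HHIP (13.8 to 24.9), against 2.70 (1.63 to 4.22) and 6.82 (5.03 to 9.05) in the 4382 cells of the main stroma cluster. ACTA2 and TAGLN are contractile genes and were markers of mural-like cells. The Leydig-like cluster, with 546 cells led by INSL3 and CYP17A1, had 35.1 CPM of HHIP (27.4 to 44.3) but 3.96 of PTCH1 (1.71 to 7.80) and 1.98 of GLI1 (0.539 to 5.07).

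**Figure D4:**
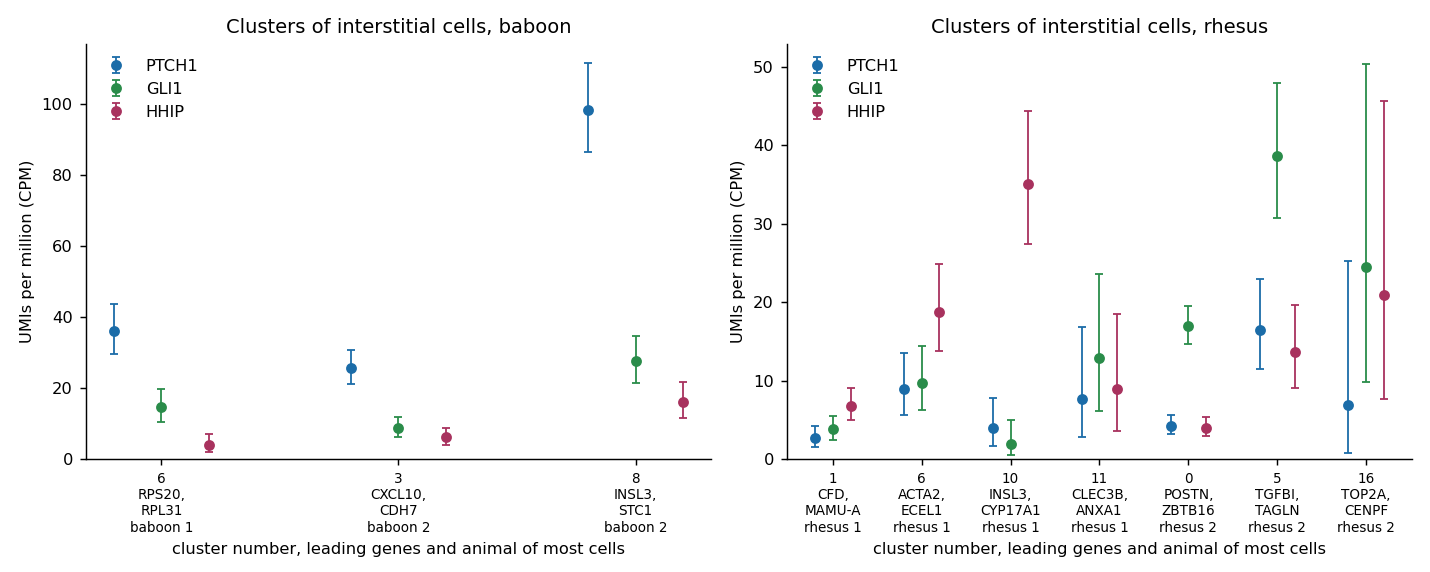
PTCH1, GLI1 and HHIP levels (CPM) in clusters named stroma or Leydig, with the leading genes and the animal of most cells under each, and 95% Poisson counting intervals. The baboon cluster led by INSL3 is at 98.4 CPM of PTCH1, and the rhesus cluster led by INSL3 and CYP17A1 is at 35.1 CPM of HHIP and 3.96 of PTCH1.

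Baboon cells with at least 5 INSL3 UMIs, a limit set after the counts were seen, were 9 in baboon 1 and 35 in baboon 2. HHIP had 2 UMIs in the former (86.7 CPM, interval 10.5 to 313) and 12 in the latter (75.1 CPM, 38.8 to 131). PTCH1 had 3 UMIs in each, which is 130 CPM (26.8 to 380) and 18.8 CPM (3.87 to 54.8). Of the 44 cells, 17 were stroma-like and 27 had no class.

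PTCH1 and GLI1 were found together in 28 of 3471 stroma-like cells of baboon 2, where their separate counts of 286 and 109 cells would give 8.98 if unrelated. In baboon 1 they met in 3 cells against 1.58, in rhesus 1 in 1 against 0.382 and in rhesus 2 in 5 against 2.18. DHH and PTCH1 met in 10 stroma-like cells of baboon 2 against 7.17 and in 3 of baboon 1 against 1.14. In rhesus 1 and 2 they met in 0 such cells, against 0.704 and 0.736. GLI1 and GLI2 met in 2 cells of baboon 1 against 0.857 and in 3 of baboon 2 against 3.08. For rhesus 1 and 2 this pair had 2 against 1.98 and 22 against 14.4. Cells with more UMIs hold more of every gene, so these counts are a description and the part of depth in them was not tested.

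The genes whose levels most resembled those of a member were ranked by Pearson's correlation of log2(CPM + 1) over the 8 baboon or 10 rhesus sums of class and animal, which share libraries, and are a description. For DHH these were GALNT6 (0.994), PRKCB, KRT8, PSEN2 and FMNL1 (0.977) in the baboon, while the rhesus list was RAB17 (0.964), ATP5F1A, ESPN, GLMP and PCYT1B (0.955). KRT8 is a keratin. For PTCH1 they were DSN1 (0.971), DPYS, COL5A1, EHBP1 and VAPB (0.944) in the baboon. The rhesus list was ZNF501 (0.953), a gene without a symbol, DIP2C, PITPNM1 and TRIL (0.922). For HHIP in the rhesus monkey they were led by CDH8 (0.934) and BHMT2 (0.920), and in the baboon by FZD2 (0.988) and ENOX1 (0.984). GLI1 was matched most closely by TBATA (0.9997) in the baboon, where both are near 0 outside stroma-like cells, and by RBMX (0.965) and JPH4 (0.964) in the rhesus monkey. No gene appeared for the same member in both species, and none was a class marker.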

How the data were processed

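Single-cell mRNA was counted in testis cells of 2 baboons and 2 rhesus monkeys. The authors aligned reads with Cell Ranger 3.1.0 against Panubis1.0 for the baboon and Mmul_10 for the rhesus monkey, and deposited whole-number UMI counts per gene and barcode, without normalization or cell calling. The submitters' processing notes also name Seurat 3.2.3. No mitochondrial gene was listed.

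Cells were called after the rule of Cell Ranger: a UMI cutoff and, for barcodes with at least 500 UMIs, a test of the profile against near-empty barcodes (ranks 45001 to 90000), with 10000 simulations and an adjusted p of 0.01, with at least 200 genes detected. Classes came from marker UMIs of each cell in a negative binomial model (posterior at least 0.95, at least 2 own markers). Clusters (Leiden, resolution 1, 30 components, 15 neighbours, igraph 0.11.9) and doublets were computed without and with the pathway genes, respectively, and doublets were kept in the main analysis. Counts were summed per class and animal, libraries of 1 animal together, and tested by edgeR 4.0.16 (quasi-likelihood, TMM, filterByExpr) in R 4.3.3 with Benjamini-Hochberg adjustment over all genes, each species alone. Blocking on the animal was an alternative, and class sums of the same animal deviated together (correlations 0.209 to 0.732). The pairing comes from the labels, and animal, age, library and, in the baboon, chemistry version cannot be told apart in it. The same holds for every difference between the 2 animals of a species. On simulated data with 200 genes changed by 2 (log2), the shares found by edgeR in baboon and rhesus were 71.5% and 54.5% (Sertoli-like), 36% and 38.5% (mural-like) and 53% and 34.5% (endothelial-like), and 47.5% for Leydig-like cells of the rhesus monkey. The changed genes were drawn at random from all genes that passed the filter, at their mean level over the sums. Sums were simulated independently, without the deviation shared by classes of the same animal. Intervals are exact 95% Poisson or Clopper-Pearson intervals and cover counting error only. The p-values rest on 2 animals per class and on a spread estimated over all classes together, with information shared across genes. Without the block, this spread includes differences between animals that their classes have in common. Each SE was calculated from the log2 change and edgeR's F statistic (the absolute change divided by the square root of F). A symbol listed more than once was taken from the entry with the most UMIs.

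The members, gene lists and comparisons were chosen with earlier results of these data known. Every member was named. Of the other pathway genes, up to 12 per species with the smallest adjusted p among those called were eligible. Likeness needed at least 50 UMIs, and the 5 highest correlations were taken. Alternatives were DESeq2 1.42.0, no filter, the block, libraries as samples, each animal alone, the UMI cutoff alone, classes from clusters, doublets left out, each library alone and 1000 UMIs per cell. Protein sequences were not analysed here, and results for some items are not reported here.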

Additional observations from a re-analysis of the deposited data

Results flagged for a closer look

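GLI3 in germ-like cells, a class outside the comparisons, was above the free RNA of every library of its animal. It stood at 17.1 CPM (16 UMIs) in baboon 1 and 19.2 CPM (21 UMIs) in baboon 2, and at 8.73 CPM (3 UMIs, counting interval 1.80 to 25.5) in rhesus 1 and 2.81 CPM (1 UMI, 0.0711 to 15.7) in rhesus 2. In the rhesus monkey these are 4 UMIs in 63 cells. A further 53 cells nearest to this class fell just short of its limit and are not among the 63. No group held the 4 to 10 samples needed for a test of outlying samples.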

How the results depend on the processing

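The block raised the number of genes called to 5265, 1152 and 4063 for baboon Sertoli-like, mural-like and endothelial-like cells against stroma-like cells, from 2088, 497 and 1879, and to 3342, 784, 277 and 2432 for rhesus Sertoli-like, Leydig-like, mural-like and endothelial-like cells, from 1551, 146, 28 and 1127. Apart from the 4 member calls given with the comparisons above, it changed no member's call. With libraries as samples the counts were 3177, 940 and 2827, and 3529, 996, 319 and 2878, where p-values treat libraries of 1 animal as separate. Without the filter they were 3232 and 894 for baboon Sertoli-like and mural-like cells, and 2371, 694, 305 and 1775 in the rhesus monkey. DESeq2 gave 788 for baboon mural-like cells and 365 and 148 for rhesus Leydig-like and mural-like cells, and classes from clusters gave 171 for the last. The UMI cutoff alone gave 568, 90 and 1102 in the baboon. It also gave DHH 1.04 on the log2 scale, no longer called, and PTCH1 in baboon stroma-like cells 29.8 CPM from a mean of 42.2, which was 51.4 without doublets. In stroma-like cells of baboon 2 this cutoff left 240 of 3471 cells, and moved DHH from 12.5 to 35.5 CPM, PTCH1 from 44.3 to 19.1, SMO from 27.6 to 16.9, GLI1 from 13.8 to 7.10 and GLI2 from 11.8 to 3.11. PTCH1 in rhesus Sertoli-like cells was called without the filter (-2.31, adjusted p = 0.0456), with the block (-2.29, adjusted p = 0.0102), with libraries as samples (-2.26, adjusted p = 0.00886) and with classes from clusters (-2.39, adjusted p = 0.0490). The causes were not tested. Of the member tests, 37 of 38 kept their call with DESeq2, 36 without doublets and 34 with classes from clusters. These counts include any member that changed sign but was called in neither fit. No alternative reversed a member that was called. The scaling of DESeq2 moved the median of all genes by at most 0.06 on the log2 scale.

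With 2 animals per species, a change of 2 on the log2 scale was often not found (see the simulated shares). The shares found ran from 34.5% for rhesus endothelial-like cells to 71.5% for baboon Sertoli-like cells, each against stroma-like cells. Recovery of smaller changes, or at the levels of the members alone, was not tested. Baboon mural-like cells held 3 PTCH1 UMIs and 0 GLI1 UMIs in all.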

Other observations

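PTCH1 was also found in baboon germ-like cells, at 25.7 CPM (24 UMIs) in baboon 1 and 41.2 CPM (45 UMIs) in baboon 2, with GLI1 at 1 UMI in all. A PTCH1 UMI was in 29.2% of these 161 cells, whose median was 12603 UMIs, and in 0.629% of 159 cells with 1000 UMIs drawn. The free RNA of library 1B held 38.8 CPM of PTCH1 from 7 UMIs, so that the level in baboon 1 is not above it. That of library 1A, of the same animal, held 5.45 CPM from 9 UMIs, which is below the level in baboon 1. In the rhesus monkey 63 germ-like cells had 3 PTCH1 UMIs. The other ligands were scarce, with SHH at 0 and 6 UMIs and IHH at 13 and 0 UMIs over all cells of the baboon and the rhesus monkey.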
